A study of Mus musculus with 16 samples.

Results

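The genes described are 9 members of the murine major histocompatibility complex (MHC) class I pathway: the heavy chains H2-M2 and H2-M3, the light chain B2m, the peptide-loading genes Tap1, Tap2 and Tapbp, the immunoproteasome subunits Psmb8 and Psmb9, and the regulator Nlrc5. They are 9 of 22179 genes that the platform annotation gives alone for at least 1 of the 40543 probe sets of the array. The list was chosen by pathway and with the measured signals of these tumors known, and for each gene the probe set was selected on the highest mean signal among those naming that gene and no other. Of the 9, only Tapbp had a second such probe set, at a mean log2 signal of 1.75. H2-M2 was added to the pathway for its differences between these groups, so these are given as a description with no test. All 9 genes passed the filter on signal and variability, which kept 10135 probe sets.

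LA-N-1, a human neuroblastoma line with MYCN amplification, was grown subcutaneously in female athymic Nude-Foxn1 nu/nu mice aged 4 to 6 weeks, which lack a thymus and most mature T cells. Mice received cinacalcet, a positive allosteric modulator of the calcium-sensing receptor, at 10 mg/kg per day by oral gavage, or vehicle alone, until tumors reached 2 cm3. RNA of whole tumors was hybridized to a mouse array, so that the probes were meant for host cells within the xenograft. The groups were 3 tumors of prolonged cinacalcet treatment (C9, C10 and C11), 4 of shorter cinacalcet treatment (C4, C5, C7 and C8) and 8 given vehicle (V5 to V12), 1 array per tumor; C6 was left out as in the methods of the study. Treatment length followed from the time a tumor took to reach its endpoint, so treatment length, slow growth and time spent in the host cannot be told apart. In each arm the last 8 tumors to be excised were used.

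Class I molecules display peptides made inside a cell to CD8+ T cells and are sensed by natural killer (NK) cells. Proteasomes cut proteins into peptides, the transporter formed by Tap1 and Tap2 moves them into the endoplasmic reticulum, and tapasin (Tapbp) holds the transporter next to a heavy chain paired with beta-2 microglobulin (B2m). Interferon-gamma raises many of these genes, partly through Nlrc5, which acts with factors bound to the S, X and Y boxes of class I promoters.

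Stretches upstream of annotated start sites (RefSeq, build GRCm38.p6) are shown for both heavy chains, for B2m and for the interval shared by Tap1 and Psmb9. Tap1 and Psmb9 are transcribed away from each other. Whether sites in these stretches bear on how the genes varied between tumors was not tested. Capitals mark matches, on either strand, to CCAAT (a box read by NF-Y) and TGANGAC (an X2-like site). They also mark GAAANNGAA (the core of an interferon-stimulated response element) and TTCNNNGAA (a STAT site). Whether a CCAAT match is the Y box of its promoter was not tested. The positions are chr17:37483555-37483804 on the minus strand for H2-M2, chr17:37269984-37270233 on the plus strand for H2-M3, chr2:122147437-122147686 on the plus strand for B2m and chr17:34187331-34187555, written on the plus strand, for Tap1 and Psmb9.
H2-M2: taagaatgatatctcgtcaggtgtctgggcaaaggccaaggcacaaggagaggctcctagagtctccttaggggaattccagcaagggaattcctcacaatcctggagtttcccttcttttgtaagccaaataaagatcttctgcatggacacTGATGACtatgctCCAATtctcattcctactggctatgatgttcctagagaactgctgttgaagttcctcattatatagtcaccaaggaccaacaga
H2-M3: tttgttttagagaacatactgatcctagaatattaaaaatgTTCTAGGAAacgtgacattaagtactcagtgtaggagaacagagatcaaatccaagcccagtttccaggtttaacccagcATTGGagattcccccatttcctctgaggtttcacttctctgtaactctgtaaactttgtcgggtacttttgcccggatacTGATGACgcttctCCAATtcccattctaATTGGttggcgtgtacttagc
B2m: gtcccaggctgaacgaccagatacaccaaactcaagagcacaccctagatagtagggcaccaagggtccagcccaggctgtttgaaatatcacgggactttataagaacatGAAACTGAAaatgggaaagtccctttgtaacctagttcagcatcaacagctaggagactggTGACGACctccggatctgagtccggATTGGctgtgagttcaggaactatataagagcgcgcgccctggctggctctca
Tap1 and Psmb9: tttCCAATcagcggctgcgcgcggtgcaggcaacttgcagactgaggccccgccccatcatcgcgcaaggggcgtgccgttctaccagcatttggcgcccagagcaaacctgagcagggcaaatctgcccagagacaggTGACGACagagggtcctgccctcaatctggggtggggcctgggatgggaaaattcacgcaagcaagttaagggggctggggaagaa

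In both heavy chains TGATGAC was followed, after 6 bases, by CCAAT, starting 97 bases before the start site in H2-M2 and 49 bases before it in H2-M3. Of 32851 promoter windows of 250 bases, 2 held this spaced pair (0.00609%), and they were those of H2-M2 and H2-M3. The pair, the free base in TGANGAC and the length of GAAANNGAA were set after the sequences had been read. Because the pair was taken from H2-M2 and H2-M3, both windows were bound to hold it. Its share of all windows is thus a description and no test. B2m and the interval of Tap1 and Psmb9 held TGACGAC in place of TGATGAC. Its first base lay 78 bases before the start site of B2m and 86 before that of Tap1.

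TGANGAC occurred in 10.46% of all windows, TGATGAC in 2.69%, CCAAT in 33.85%, GAAANNGAA in 7.13% and TTCNNNGAA in 7.02%. GAAANNGAA was found in 1 of the 7 members with a promoter in the table, B2m, where it began 139 bases before the start site. A TTCNNNGAA match lay 209 bases before the start site of H2-M3 and 97 before that of Psmb8, which also held TGANGAC on the opposite strand. Tapbp held 2 CCAAT matches and no other. Tap2 and Nlrc5 are named only. A match describes these letters and does not show that a factor was bound. Psmb9, Tap1, Psmb8 and Tap2 follow each other as neighboring protein-coding genes on chromosome 17, where H2-M2, H2-M3 and Tapbp lie as well; B2m lies on chromosome 2.

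Array medians ranged from 1.58 to 1.85 on the log2 scale, and arrays correlated with each other at 0.856 to 0.954. Vehicle tumor V5 had the lowest host cell score, the mean of fibroblast, macrophage, endothelial and mural marker signals (4.01, against 4.66 to 6.05 in the other 14 tumors). Genes of unrelated tissues, taken as silent here, had mean signals of 1.23 to 1.84 per tumor. No array of LA-N-1 cells alone was used, so binding of human transcripts to these probes was not tested. In whole tumors, fewer cells of a type and less RNA per cell cannot be told apart.

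In prolonged cinacalcet tumors the mean signal of all 9 genes lay above that of vehicle tumors, but tumors within the group differed widely. C9 had the highest signal of all 15 tumors in 8 of the 9 genes, and C11 exceeded every vehicle tumor in 6 of them, whereas C10 exceeded every vehicle tumor in none. Of the 8 genes tested, Tap1, Nlrc5 and Psmb9 were higher than in vehicle tumors before adjustment for multiple testing (unadjusted p under 0.05), and no gene was after it. Of all 10135 probe sets kept, 6.21% were higher at that unadjusted threshold. In 9.31% of them, 2 or 3 of the 3 prolonged cinacalcet tumors exceeded every vehicle tumor. Means of shorter cinacalcet tumors differed from those of vehicle tumors by -0.34 to 0.29 in the 8 genes tested and by -0.63 in H2-M2. A single tumor among them, C4, exceeded every vehicle tumor in 8 of the 9 genes. Without C4 the difference was below 0 in all 9 genes, from -0.94 for H2-M2 to -0.15 for Psmb9. The share of all probe sets in which C9, C11 or C4 alone exceeded every vehicle tumor was not computed.

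**Figure D1:**
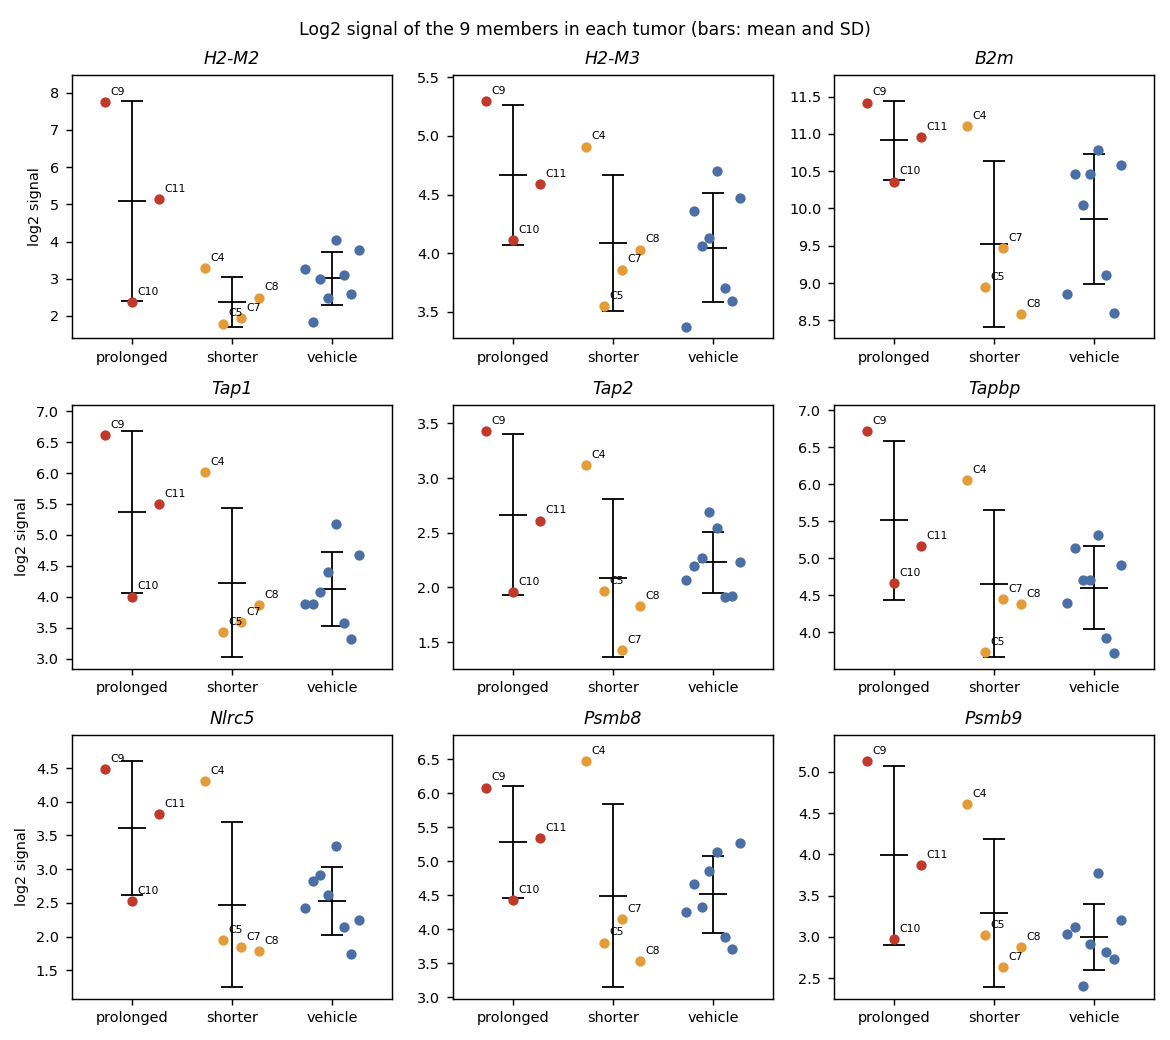
Log2 signal (vertical axis) of each of the 9 genes in tumors of prolonged cinacalcet, shorter cinacalcet and vehicle treatment, 1 point per tumor, with bars for the mean and SD of each group. C9 is the highest point in 8 of the 9 genes and C4 stands above the other 3 shorter cinacalcet tumors in all of them.

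H2-M2, a non-classical heavy chain encoded at the distal end of the MHC, had log2 signals of 7.76 in C9, 2.37 in C10 and 5.14 in C11. It stood at 3.29 in C4, 1.79 in C5, 1.94 in C7 and 2.49 in C8. In vehicle tumors it ranged from 1.84 to 4.04, with a median of 3.05. C9 and C11 thus lay above all vehicle tumors, C10 lay inside their range, and no shorter cinacalcet tumor exceeded them. The group means were 5.09 ± 2.70 (SD, n = 3) in prolonged cinacalcet, 2.38 ± 0.68 (SD, n = 4) in shorter cinacalcet and 3.01 ± 0.71 (SD, n = 8) in vehicle tumors. Prolonged cinacalcet minus vehicle was 2.08 on the log2 scale, which fell to 0.74 without C9 and came to 3.44 without C10. Shorter cinacalcet minus vehicle was -0.63, and prolonged minus shorter cinacalcet was 2.71, or 1.37 without C9 and 4.07 without C10. The signals of C5, C7 and V6, at 1.79, 1.94 and 1.84, were close to those of the silent genes. This was the one gene of the 9 in which C4, at 3.29, did not exceed the vehicle tumors.

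H2-M3, a non-classical heavy chain that presents N-formylated peptides of bacteria and mitochondria, had a narrower range. Its log2 signal was 5.30 in C9, 4.11 in C10 and 4.59 in C11, and 4.91 in C4, 3.55 in C5, 3.86 in C7 and 4.03 in C8. Vehicle tumors ranged from 3.37 to 4.70 with a median of 4.10. Only C9 and C4 lay above all vehicle tumors. Prolonged cinacalcet minus vehicle was 0.62 (standard error 0.37, adjusted p = 0.582 from limma), and 0.30 without C9.

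B2m, the light chain that every classical heavy chain needs to reach the surface, stood at 11.42 in C9, 10.36 in C10 and 10.96 in C11. Its signal was 11.10 in C4 and only 8.94 in C5, 9.47 in C7 and 8.58 in C8. In vehicle tumors B2m ranged from 8.60 to 10.78, with a median of 10.25. The prolonged cinacalcet tumors therefore lay in the upper part of the vehicle range or above it, and 3 of the 4 shorter cinacalcet tumors in the lower part or below it. The means were 10.92 ± 0.53 (SD, n = 3), 9.52 ± 1.11 (SD, n = 4) and 9.86 ± 0.87 (SD, n = 8) in prolonged cinacalcet, shorter cinacalcet and vehicle tumors. Prolonged cinacalcet minus vehicle was 1.05 (standard error 0.54, adjusted p = 0.58 from limma). Prolonged minus shorter cinacalcet was 1.39, with an unadjusted p of 0.0347 in limma (adjusted p = 0.812). For that difference a two-sided exact permutation test of this gene alone gave p = 0.143.

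Among the peptide-loading genes, Tap1, a subunit of the peptide transporter, had log2 signals of 6.61 in C9, 4.00 in C10 and 5.50 in C11. It stood at 6.01 in C4, 3.43 in C5, 3.59 in C7 and 3.87 in C8, and vehicle tumors ranged from 3.32 to 5.17 with a median of 3.98. C9, C11 and C4 were above all vehicle tumors, while C10 was close to their median. Tap1 averaged 5.37 ± 1.31 (SD, n = 3) in prolonged cinacalcet and 4.12 ± 0.60 (SD, n = 8) in vehicle tumors. This is a difference of 1.25 (standard error 0.56, unadjusted p = 0.0373, adjusted p = 0.58 from limma), or 2.38-fold; a two-sided exact permutation test of this gene alone gave p = 0.0424. The difference was 0.63 without C9 and 1.93 without C10.

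Tap2, the other transporter subunit, had the smallest difference between prolonged cinacalcet and vehicle tumors among the 8 genes tested. It stood at 3.43 in C9, 1.96 in C10 and 2.61 in C11, at 3.12 in C4, 1.97 in C5, 1.43 in C7 and 1.83 in C8, and at 1.91 to 2.69 in vehicle tumors (median 2.21). C7 and C8 were below every vehicle tumor, and several of these signals were close to those of the silent genes. Prolonged cinacalcet minus vehicle was 0.44 (standard error 0.37, adjusted p = 0.649 from limma), and 0.05 without C9. Tapbp, or tapasin, had signals of 6.72 in C9, 4.66 in C10 and 5.16 in C11, against 3.72 to 5.32 in vehicle tumors with a median of 4.71. Its signal in C4 was 6.06, and in C5, C7 and C8 it was 3.73, 4.45 and 4.38. C9 and C4 alone exceeded the vehicle tumors. Prolonged cinacalcet minus vehicle was 0.91 (standard error 0.49, adjusted p = 0.58 from limma), 0.31 without C9, and 0.39 when both of its probe sets were averaged.

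The 2 immunoproteasome subunits replace constitutive catalytic subunits in cells exposed to interferon. Psmb8 had log2 signals of 6.08 in C9, 4.43 in C10 and 5.34 in C11, and 6.47 in C4, 3.80 in C5, 4.15 in C7 and 3.53 in C8. Vehicle tumors ranged from 3.70 to 5.27, with a median of 4.50. Psmb8 was the one gene of the 9 in which C4 rather than C9 was highest. Its prolonged cinacalcet minus vehicle difference was 0.77 (standard error 0.53, adjusted p = 0.615 from limma), and 0.37 without C9.

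Psmb9 stood at 5.13 in C9, 2.97 in C10 and 3.87 in C11. In shorter cinacalcet tumors it was 4.61 in C4, 3.02 in C5, 2.63 in C7 and 2.88 in C8, and vehicle tumors ranged from 2.40 to 3.77 with a median of 2.97. C9, C11 and C4 lay above all vehicle tumors, C11 by a small margin. Psmb9 averaged 3.99 ± 1.09 (SD, n = 3) in prolonged cinacalcet and 3.0 ± 0.40 (SD, n = 8) in vehicle tumors, a difference of 0.99 (standard error 0.45, unadjusted p = 0.0401, adjusted p = 0.58 from limma). The exact permutation test, two-sided, gave p = 0.0424 for this gene alone. Without C9 the difference was 0.42.

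Nlrc5, the transactivator of class I genes, had signals of 4.48 in C9, 2.53 in C10 and 3.82 in C11. In shorter cinacalcet tumors the signal was 4.31 in C4, against 1.95 in C5, 1.84 in C7 and 1.79 in C8. Vehicle tumors ranged from 1.74 to 3.34, with a median of 2.51. C9, C11 and C4 were above all vehicle tumors, and the other shorter cinacalcet tumors were close to the lowest of them. Nlrc5 averaged 3.61 ± 0.99 (SD, n = 3) in prolonged cinacalcet and 2.53 ± 0.50 (SD, n = 8) in vehicle tumors. The difference of 1.08 (standard error 0.51) had an unadjusted p of 0.0474 in limma (adjusted p = 0.58), and the exact permutation test, two-sided, gave p = 0.0303 for this gene alone. It was 0.65 without C9 and 1.62 without C10.

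Counted together for prolonged cinacalcet against vehicle, 3 of the 8 genes tested were higher at an unadjusted p under 0.05, none was lower, and 0 passed an adjusted p under 0.05 with limma. Among all 10135 probe sets kept, 6.21% were higher and 2.09% lower at an unadjusted p under 0.05, and 0% passed after adjustment (smallest adjusted p 0.252). The count of 3 became 0 without C9, C11, V10 or V11, 1 without V5 or V8, and 5 without C10 or C4. The median difference of the 8 genes was 0.95, against 0.18 for all probe sets kept. The two-sided exact permutation tests, not adjusted for the 8 genes, gave p = 0.0303 to 0.0424 for Tap1, Nlrc5 and Psmb9. For H2-M3, B2m, Tap2, Tapbp and Psmb8 the same permutation tests gave p = 0.0909 to 0.164. Of the 8 genes tested, 5 (B2m, Tap1, Nlrc5, Psmb8 and Psmb9) had 2 of 3 prolonged cinacalcet tumors above every vehicle tumor and none had 3 of 3; of all probe sets kept, 9.31% had 2 or 3 and 1.13% had 3. In arrays simulated for this comparison, limma recovered 5% of changes of 1 log2 unit and 68% of changes of 2 log2 units at an adjusted p under 0.05. Each simulated probe set had the same spread in all groups. The members did not: the SD of Tap1 was 1.31 in prolonged cinacalcet and 0.60 in vehicle tumors. These shares therefore do not give the power for the members.

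**Figure D2:**
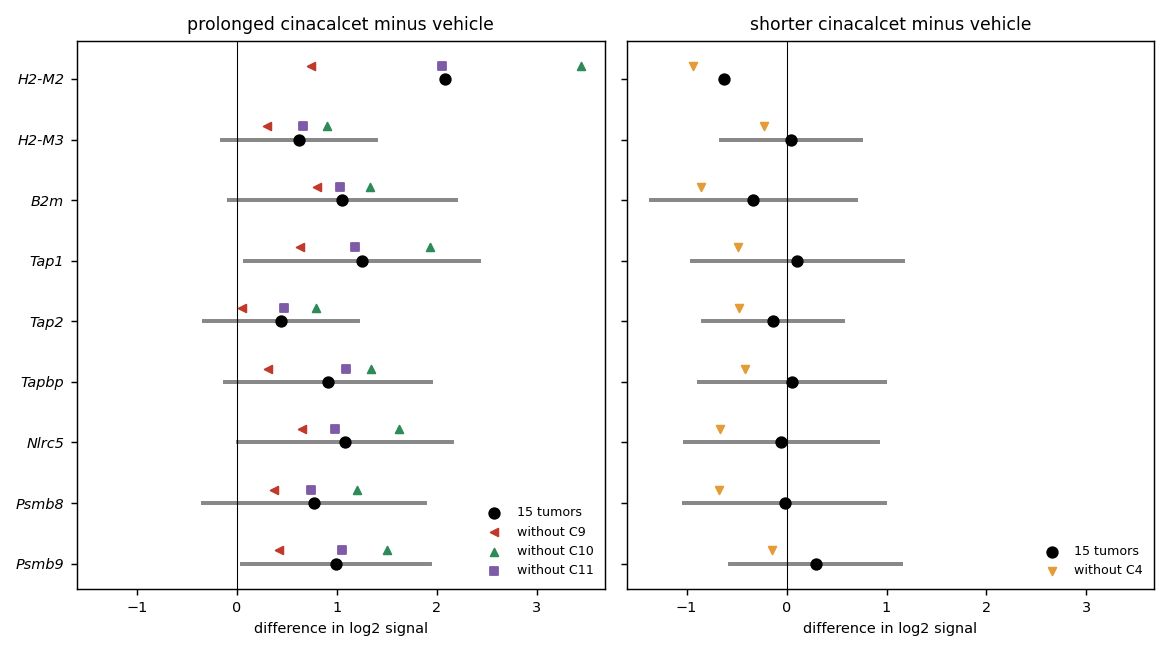
Difference in log2 signal (horizontal axis) from vehicle tumors for each gene, with prolonged cinacalcet on the left and shorter cinacalcet on the right. Black points use all 15 tumors, gray bars are 95% confidence intervals from limma (none for H2-M2, which was not tested) and colored symbols are the difference with the named tumor left out. The prolonged cinacalcet differences are above 0 for all 9 genes and smallest without C9.

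Shorter cinacalcet minus vehicle lay between -0.34 for B2m and 0.29 for Psmb9 among the 8 genes tested, with a median of 0.01 against 0.00 for all probe sets kept. None of the 8 reached an unadjusted p under 0.05 in limma, where 1.18% of all probe sets kept were higher and 1.42% lower. The intervals were wide, from -0.95 to 1.16 for Tap1 and from -1.02 to 0.91 for Nlrc5. Without C4 the differences became -0.49 for Tap1, -0.67 for Nlrc5, -0.68 for Psmb8 and -0.86 for B2m.

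Between the cinacalcet groups, 1 of the 8 genes, B2m, was higher in prolonged than in shorter cinacalcet tumors at an unadjusted p under 0.05 and 0 passed after adjustment with limma. Of all probe sets kept, 4.09% were higher and 1.28% lower. The two-sided exact permutation test of single genes gave p = 0.143 for B2m and 0.2 to 0.4 for the other genes tested. With 35 arrangements its smallest possible p is 0.0286. The median difference was 0.83, against 0.17 for all probe sets kept. The count of 1 became 7 without C4 and 5 without C10, and 0 without C5, C7, C8, C9 or C11. With all 7 cinacalcet tumors as 1 group, none of the 8 genes differed from vehicle tumors at an unadjusted p under 0.05 in limma, where 2.32% of all probe sets kept were higher and 1.99% lower. The median difference was 0.37 against 0.09. H2-M2 had a difference of 0.53 in that comparison, and of -0.18 without C9. The prolonged and shorter cinacalcet comparisons share the vehicle tumors.

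The 8 genes other than H2-M2 varied together from tumor to tumor. The mean signal of the 8 genes other than H2-M2 was 6.15 in C9, 4.38 in C10 and 5.23 in C11, and 5.82 in C4, 3.80 in C5, 3.93 in C7 and 3.86 in C8. In vehicle tumors it ranged from 3.67 in V11 to 5.10 in V9. Low tumors were shared as well: V10 and V11 were among the 5 lowest of 15 tumors in 8 of the 9 genes, and C5, C7 and C8 in 7 each. The 28 Pearson correlations among the 8 genes over 15 tumors ranged from 0.71 to 0.94 (median 0.88), from 0.64 to 0.93 without C9, and from 0.67 to 0.93 with values centered within the 3 groups. H2-M2 correlated with the other 8 at 0.59 to 0.83, and at 0.44 to 0.71 without C9. The genes share arrays and normalization, so these correlations are descriptions.

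**Figure D3:**
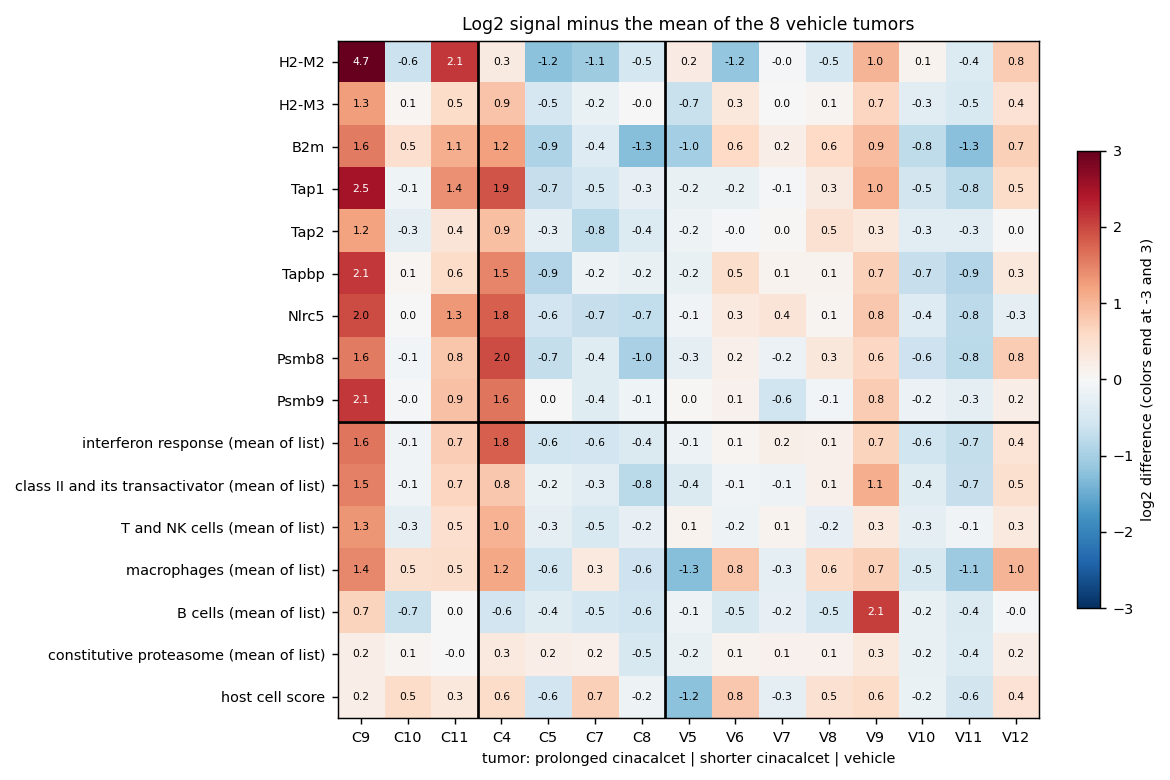
Log2 signal of the 9 genes (upper rows) and mean log2 signal of 6 gene lists and the host cell score (lower rows) in each tumor, minus the mean of the 8 vehicle tumors. Columns run from prolonged cinacalcet to shorter cinacalcet and vehicle. C9, C11 and C4 are above the vehicle mean in all 9 genes, as V9 is, while C10 is above it in 4 of them.

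Across the 15 tumors, the signals of Tap1 (Pearson r = 0.93, Spearman rho = 0.90), Tap2 (0.91 and 0.89), Tapbp (0.91 and 0.90), Psmb8 (0.90 and 0.88), Psmb9 (0.88 and 0.70), H2-M3 (0.85 and 0.81) and B2m (0.85 and 0.87) went with that of Nlrc5. For Pearson's r the adjusted permutation p was between 1.7e-05 and 0.00011 over 7 relations; the unadjusted p was 1e-05, the smallest that 100000 resamples can give, for Tap1, Tap2, Tapbp and Psmb8. For Spearman's rho the adjusted permutation p was between 7e-05 and 0.0057. These tests are against no relation: of 12967 genes compared, 75 (0.578%) had an r with Nlrc5 at least as high as the lowest of the 7, and 68 of them were no members, while the median r was 0.07. The Nlrc5 signals of C5, C7, C8 and V11 were close to those of the silent genes. Those of V10 (2.14) and V12 (2.24) also lay below the mean of Cryaa (2.35), the highest of the silent genes. Without C9 and C4, the tumors farthest from the median of Nlrc5, r was between 0.68 for Psmb9 and 0.84 for Tap1. Within the 7 cinacalcet tumors r was 0.92 to 0.98, and within the 8 vehicle tumors 0.46 to 0.85. H2-M2 had r = 0.73 with Nlrc5 and rho = 0.57, with r = 0.81 in cinacalcet and 0.19 in vehicle tumors; no test was made for it.

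**Figure D4:**
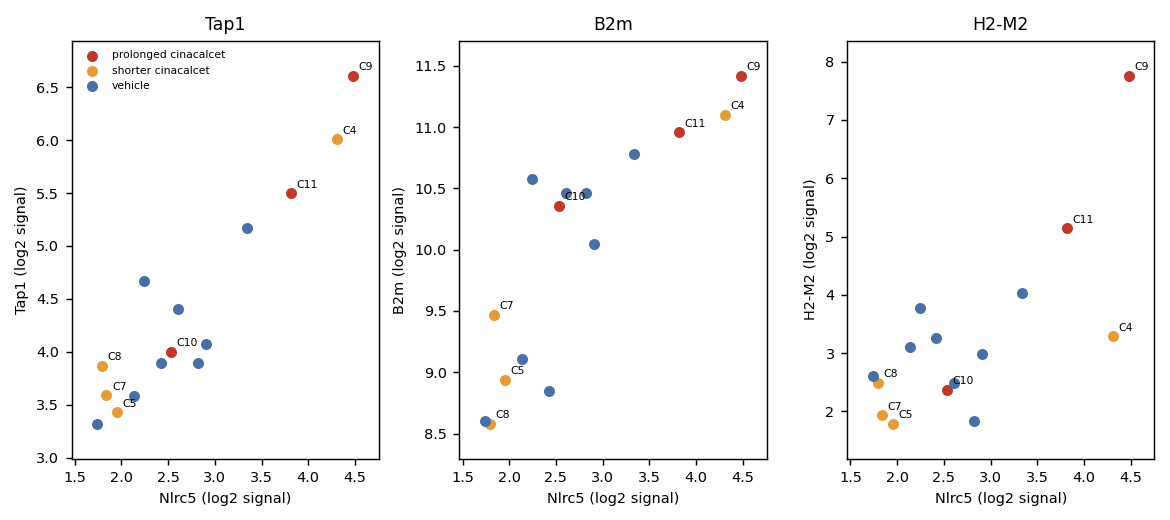
Log2 signal of Tap1, B2m and H2-M2 (vertical axes) against that of Nlrc5 (horizontal axes), 1 point per tumor, colored by group. Tap1 and B2m climb with Nlrc5 over all tumors, whereas H2-M2 at 3.29 in C4 is far below its 7.76 in C9 although Nlrc5 was 4.31 and 4.48 in these tumors.

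The host cell score, which includes the macrophage markers, was also set against each gene. B2m (r = 0.70, rho = 0.56) and H2-M3 (r = 0.65, rho = 0.62) had adjusted permutation p-values of 0.027 and 0.033 for r and of 0.086 and 0.08 for rho, over 8 relations. Without V5 and C5, which lay farthest from the median score, r was 0.62 for B2m and 0.45 for H2-M3, and neither passed adjustment. For the other 6 genes tested r was 0.25 to 0.52 (adjusted permutation p 0.1 to 0.36; rho 0.19 to 0.60). H2-M2 had r = 0.06. C9, C10 and C11 had host cell scores of 5.45, 5.79 and 5.55, inside the vehicle range of 4.01 to 6.05. With the score as a covariate, a setting added after the values were seen, none of the 8 genes was higher in prolonged cinacalcet than in vehicle tumors at an unadjusted p under 0.05.

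Genes whose signals were most like those of 3 members were ranked by Pearson's r over the 15 tumors among 12967 genes; Nlrc5 was added to this ranking after its values were seen. H2-M2 was most like Igkj1 (r = 0.94), an immunoglobulin joining segment, Stx11 (0.93), a syntaxin of cytotoxic granule release, and Hcar2 (0.92), a niacin receptor of myeloid cells and adipocytes, then Csf3r (0.88), the receptor of granulocyte colony-stimulating factor, and Eid3 (0.87). Without C9 these values were 0.85, 0.78, 0.74, 0.65 and 0.59. B2m was most like the leukocyte genes Nckap1l (0.97) and Ptprc (0.96), with Idnk (0.97), Rbck1 (0.96) and the lysosomal protease Ctsz (0.96), each at 0.95 to 0.97 without C9. Nlrc5 was most like Irf1 (0.94), an interferon-induced transcription factor, Igtp (0.94), Herc6 (0.94), the T cell receptor component Cd3g (0.93) and Parp14 (0.93), each at 0.91 or 0.92 without C9.

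The rest of the class I pathway was read from the fit over all 40543 probe sets, where 3.66% were higher and 3.48% lower in prolonged cinacalcet than in vehicle tumors at an unadjusted p under 0.05, with a median difference of -0.06 and none passing adjustment. Of 27 other heavy chains and class I-like molecules measured, 1 was higher, the classical heavy chain H2-K1, at 6.03 in prolonged cinacalcet and 4.81 in vehicle tumors (difference 1.21, unadjusted p = 0.0312 from limma). Probes of H2-K1 can bind other, near-identical heavy chains. H2-M5 (-0.55) and H2-M10.1 (-0.60) were lower at that threshold, and the median of the 27 was -0.08. H2-D1 was not analysed here.

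Of 11 other peptide loading and trimming genes, 3 were higher at an unadjusted p under 0.05: Calr (calreticulin, a chaperone of the loading complex; difference 1.06), Erap1 (an aminopeptidase that trims peptides; 0.89) and Pdia3 (a disulfide isomerase of the loading complex; 0.55). The median of the 11 was 0.52. None of 5 other immunoproteasome and activator genes reached that threshold, the proteasome assembly chaperone Pomp having a difference of 1.28 (unadjusted p = 0.0733 from limma) and Psmb10, the third inducible catalytic subunit, one of 0.75 (unadjusted p = 0.173 from limma). None of 13 constitutive proteasome genes did, with a median of 0.00. Among 14 transcription regulators none did either, with 1.24 for Irf1, 0.49 for Irf2 and 0.85 for Irf8 and a median of 0.25.

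In shorter cinacalcet against vehicle tumors, 2.03% of all probe sets were higher and 1.64% lower at an unadjusted p under 0.05. Of the same lists, H2-M10.1 was lower (-0.74) and Psme3, a proteasome activator subunit, was higher (0.28). No other gene of these 5 lists reached that threshold, and the list medians ran from -0.07 to 0.23.

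The interferon response list and the joint list of T and NK cell genes had their highest means in C9, C11 and C4. B2m, Tap1, Nlrc5, Psmb8 and Psmb9 were also highest in these tumors. The mean of 19 interferon response genes was 5.09 in C9, 3.38 in C10 and 4.23 in C11, and 5.29 in C4 against 2.88 to 3.05 in C5, C7 and C8, with vehicle tumors at 2.77 to 4.15. One of the 19, Oas2, was higher in prolonged cinacalcet than in vehicle tumors at an unadjusted p under 0.05 (0.98), beside Gbp7 (1.59, unadjusted p = 0.0603 from limma) and Iigp1 (1.82, unadjusted p = 0.0735 from limma), and the median was 0.48. The mean of 11 T and NK cell genes was 3.50 in C9, 1.90 in C10 and 2.68 in C11, 3.22 in C4 and 1.72 to 1.94 in C5, C7 and C8, with vehicle tumors at 1.91 to 2.48. Cd3g (1.71) and Cd8a (0.99), components of the T cell receptor complex and its co-receptor, were higher at that threshold. Of the 11 differences, 8 were above 0. Cd3d averaged 1.70 in prolonged cinacalcet and 1.49 in vehicle tumors, close to the silent genes. The NK cell markers Klrb1c (0.82 and 1.29), Ncr1 (1.89 and 1.91) and Eomes (1.43 and 1.58) did not average higher in prolonged cinacalcet tumors. The list mean does not separate T cells from NK cells.

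Macrophage genes, 12 in number, averaged 5.51 to 6.48 in prolonged cinacalcet, 4.42 to 6.20 in shorter cinacalcet and 3.75 to 6.05 in vehicle tumors; 1 of them, Mertk, a receptor for the uptake of dying cells, was higher in prolonged cinacalcet than in vehicle tumors at an unadjusted p under 0.05 (1.29), and the median was 0.88. Of 10 class II genes, H2-Eb1 (1.28) and H2-DMa (0.77) were higher, with a median of 0.57. No gene of the dendritic cell list (8 measured) or of the B cell list (5 measured) was, and their means were 2.82 to 3.27 and 1.86 to 3.20 in prolonged cinacalcet, 2.79 to 2.87 and 1.94 to 2.17 in shorter cinacalcet, and 2.83 to 3.41 and 2.0 to 4.60 in vehicle tumors. The part of these cells, and of interferon, in the differences of the members was not tested.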

How the data were processed

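RNA of 16 LA-N-1 xenografts was hybridized to Mouse Gene 2.1 ST arrays. The authors deposited log2 signals, 1 per probe set and array, made by Robust Multi-array Average (RMA), which corrects background, equalizes the distributions of arrays and sums up probes, and so reduces any shift common to most probe sets. In the submitters' processing notes, limma 3.24 and R 3.2 are named beside RMA. Groups came from tumor numbers in the labels, with C9 to C11 named by the study's methods as those of longest treatment. The members and all gene lists were chosen with earlier results of these data known.

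C6 was left out, and the lower 50% of probe sets by mean signal and then the lower 50% of the rest by SD were removed. Linear models of the 3 groups were fitted with limma 3.58.1 in R 4.3.3, with p-values adjusted by Benjamini-Hochberg over the 10135 probe sets that remained; listed genes outside the 9 members were read from a fit with no filter. P-values reflect differences from tumor to tumor, and precision is limited by the number of arrays. Single genes were also tested by an exact, two-sided permutation, and relations by 100000 permutations. The exact test had 165 arrangements for 3 against 8 tumors (smallest p 0.00606) and 35 for 3 against 4 (smallest p 0.0286). Lists were scored by averaging the log2 signals of their genes. Named genes are the 9 members, up to 4 genes of smallest p in each list described, and the 5 genes most like H2-M2 and B2m. Psmb10, Cd3d, Klrb1c, Ncr1, Eomes and the genes most like Nlrc5 were named after their values were seen. The model was tested on 10135 simulated probe sets, of which 100 were changed by 1 and 100 by 2 log2 units. It made 1 false call among the unchanged ones. Simulated noise was independent between probe sets, unlike that of real arrays, and had the same spread in all groups. Alternatives covered the filter, C6, normalization, the variance model, array weights, a block, probe set choice and each tumor left out. Promoter windows are the 250 bases before each RefSeq start site. Figures were drawn with matplotlib.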

Additional observations from a re-analysis of the deposited data

Results flagged for a closer look

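Of 27 groups examined (9 genes in shorter cinacalcet, all cinacalcet and vehicle tumors), 2 contained a tumor standing far apart, and about 5% of groups do so by chance. Both are C4 in the shorter cinacalcet group. Its Tap1 signal was 6.01, with the next tumor at 3.87, and its Nlrc5 signal was 4.31, with the next at 1.95, on the log2 scale. No explanation was tested.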

How the results depend on the processing

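No member reached an adjusted p under 0.05 in any comparison under 13 alternatives or with any 1 tumor left out, the smallest being 0.345, and all 7 relations to Nlrc5 passed throughout as tests against no relation. Under the 13 alternatives, 452 of 468 member differences kept their sign, among them every difference between prolonged cinacalcet and vehicle tumors. Those that turned were close to 0, apart from some with the block. Shorter cinacalcet minus vehicle became 0.0046 for Psmb8 with arrays centered on their medians, and -0.07 for H2-M3, -0.02 for Tap1 and -0.05 for Tapbp with array weights. With the tumor number as a replicate block it became -0.04 for H2-M3, -0.49 for Tap1 and -0.42 for Tapbp, and cinacalcet minus vehicle became -0.03 for Tap2. Averaging all probe sets gave -0.11 for Tapbp. With the host score as a covariate the values were -0.03 for H2-M3, -0.03 for Tapbp and, for all cinacalcet, -0.0042 for B2m. Without V5 and V11 together, also chosen after seeing the data, they were -0.15 for H2-M3, -0.07 for Tap1, -0.13 for Tapbp and, for all cinacalcet, -0.12 for B2m. With 1 tumor left out, shorter cinacalcet minus vehicle ranged from -0.23 to 0.22 for H2-M3, -0.49 to 0.37 for Tap1, -0.48 to 0.08 for Tap2, -0.42 to 0.36 for Tapbp, -0.67 to 0.17 for Nlrc5, -0.68 to 0.30 for Psmb8 and -0.15 to 0.50 for Psmb9, and cinacalcet minus vehicle from -0.08 to 0.26 for Tap2 and from -0.18 to 0.82 for H2-M2, which was not tested.

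The 3 members at an unadjusted p under 0.05 in prolonged cinacalcet against vehicle tumors became 1 with quantile normalization, 5 with the replicate block, 0 with the host covariate, 0 without V5 and V11 together, and 0 to 5 with 1 tumor left out. The 1 in prolonged against shorter cinacalcet became 2 with C6, 0 with quantile normalization, 3 with array weights, 5 with the block, and 0 to 7 with 1 tumor left out. The 0 of all cinacalcet against vehicle tumors ranged from 0 to 1, the 1 without C7. The 2 relations to the host score became 4 with arrays centered, 0 without the 2 farthest tumors, and 0 to 3 with 1 tumor left out. Tumors sharing a number deviated together in some pairs and not in others (6 pairs, r from -0.24 to 0.37, 2 above 0.1). The labels do not say what a shared number means, so the block is a check by number only. The cause of these changes was not tested. Precision is limited by the number of arrays and, for Tap2, Nlrc5 and H2-M2, by signals close to those of silent genes in some tumors.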
